A study of Mus musculus with 24 samples.

Results

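This report describes 10 genes for hypothalamic neuropeptides, *Oxt*, *Avp*, *Crh*, *Hcrt*, *Pmch*, *Gal*, *Nts*, *Tac1*, *Penk* and *Nucb2*, out of the 55471 genes counted in the mouse hypothalamus. They were chosen by name as the peptide genes of the paraventricular nucleus and the lateral hypothalamus, and each was matched to its Ensembl identifier through its symbol. All 10 passed the expression filter that left 18992 genes for testing. Magnocellular neurons of the paraventricular and supraoptic nuclei make oxytocin (*Oxt*) and vasopressin (*Avp*) and release them into the blood from the posterior pituitary, while parvocellular neurons make corticotropin-releasing hormone (*Crh*), which drives the pituitary-adrenal axis. Separate neurons of the lateral hypothalamus make orexin (*Hcrt*), a peptide of wakefulness and reward, and melanin-concentrating hormone (*Pmch*), which promotes feeding. Galanin (*Gal*), neurotensin (*Nts*), the tachykinin precursor of substance P (*Tac1*), proenkephalin (*Penk*) and nucleobindin 2 (*Nucb2*), the precursor of nesfatin-1, are made in many neurons of the hypothalamus and beyond it.

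Bulk RNA was sequenced from the hypothalamus of 24 male C57BL6/J mice, aged 18 weeks in the series description and with free access to chow, 1 library per mouse. All mice carried a gastric catheter. ExpOF mice were overfed by gastric infusion of a sucrose-enriched liquid diet and Control mice received sterile water at matched flow rates. Both were killed on day 14 (d14), the last day of overfeeding, or on day 17 (d14+3), after 3 days in which both diet groups received water. The comparison asks how overfeeding, and the first days of recovery from it, left the expression of these genes. Each group held 6 mice, 3 killed in July and 3 in September. The study left out 1 mouse, Control d14 replicate 4 of the September cohort, so that the values below rest on 23 mice with 5 in Control d14. The total count per library used ranged from 8928182 to 34848437, and RIN, the integrity score of each RNA as the labels give it, ranged from 7.2 to 10. On d14 its median was 9.6 in Control and 9.7 in ExpOF mice, but on d14+3 it was 8.6 (7.2 to 9.9) in Control and 9.55 (8.8 to 10) in ExpOF mice. The left-out library had a RIN of 9.8 and 10922271 counts. Levels are given as CPM, counts divided by the library's total after TMM scaling and set to a common total. The p-values measure the spread between these mice. In bulk tissue, fewer cells of a type and less RNA per cell cannot be told apart.

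The results turn most on *Oxt* and *Avp*, neighbouring genes on chromosome 2 that arose by duplication and are transcribed toward each other, with 3565 bases between their 3′ ends. In mm10, *Oxt* lies at chr2:130576173-130577054 on the plus strand and *Avp* at chr2:130580620-130582554 on the minus strand. Each has 3 exons. Exon 2, which is coding in full and encodes most of the neurophysin carrier protein, is shown because both genes share it almost base for base and because reads of 51 bases within it can fit either gene. In each line the first 125 bases, in capitals, form an identical run. Oxt exon 2 is chr2:130576591-130576792 and Avp exon 2 is chr2:130581056-130581257, both written 5′ to 3′ on the coding strand from the GENCODE vM21 transcripts.
Oxt exon 2: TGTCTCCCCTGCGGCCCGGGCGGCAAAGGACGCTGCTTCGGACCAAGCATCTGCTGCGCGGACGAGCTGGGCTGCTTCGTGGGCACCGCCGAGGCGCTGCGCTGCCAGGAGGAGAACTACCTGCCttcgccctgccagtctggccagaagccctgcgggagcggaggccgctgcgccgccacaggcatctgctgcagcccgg
Avp exon 2: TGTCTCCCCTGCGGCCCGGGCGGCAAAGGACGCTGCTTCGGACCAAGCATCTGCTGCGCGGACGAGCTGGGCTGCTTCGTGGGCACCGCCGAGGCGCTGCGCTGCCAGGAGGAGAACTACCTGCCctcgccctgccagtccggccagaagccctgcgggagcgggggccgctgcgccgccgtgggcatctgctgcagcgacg
The exons matched at 193 of 202 positions (95.5%), and with 2 further bases of exon 1 the identical run in the transcripts was 127 bases long. Of the 487 windows of 51 bases in the *Oxt* transcript, 77 also occurred in *Avp*, that is 15.8% of *Oxt* and 14.6% of the 527 windows of *Avp*. No window of *Crh*, *Hcrt*, *Gal*, *Nts*, *Tac1* or *Nucb2* occurred in another annotated transcript. *Pmch* shared 337 of 699 windows with *Parpbp* and *Penk* 134 of 1580 with *A830012C17Rik*, in both cases from the opposite strand at the same place in the genome. The library kit marks strand, and whether the counting used it is not given in the sources used here.

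Since *Oxt* and *Avp* varied together across mice (below), the 200 bases before each RefSeq start site are shown as well. They come from the RefSeq promoter table for GRCm38.p6, which holds 8 of the 10 genes. For both genes these start sites lie upstream of the gene starts given above, so the windows end short of those. Capitals in *Oxt* mark the letters TGACC on either strand (GGTCA on the other), the half-site of several nuclear hormone receptors, and in *Avp* the letters CACGTG, an E-box that reads the same on both strands. Oxt is chr2:130575969-130576168 on the plus strand and Avp is chr2:130582589-130582788 on the minus strand.
Oxt upstream: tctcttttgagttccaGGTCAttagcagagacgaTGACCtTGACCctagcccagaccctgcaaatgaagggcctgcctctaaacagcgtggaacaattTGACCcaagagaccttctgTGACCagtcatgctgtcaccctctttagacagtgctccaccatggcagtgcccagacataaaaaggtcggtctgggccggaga
Avp upstream: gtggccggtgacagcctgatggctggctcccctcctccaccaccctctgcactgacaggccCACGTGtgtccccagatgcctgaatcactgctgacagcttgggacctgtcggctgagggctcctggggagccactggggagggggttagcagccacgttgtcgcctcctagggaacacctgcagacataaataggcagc
*Oxt* held 5 copies of TGACC, at bases 17, 35, 41, 99 and 118 of the line, and *Avp* held 0. Of 32851 promoter windows of this length, 29.4% held at least 1 copy and 0.0304% held 5 or more. The *Avp* window held 1 CACGTG, at base 62, as did *Tac1*, and 5.26% of all windows held at least 1. These letters describe the windows, and no binding was measured.

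Per kilobase of gene length and over the 23 mice, *Pmch* had the highest level of the 10 genes, with a median of 361 CPM per kilobase. It was followed by *Oxt* at 161, *Avp* at 112, *Hcrt* at 105 and *Penk* at 64.8 CPM per kilobase. *Gal* (43.5), *Nts* (30.7), *Tac1* (17.3) and *Nucb2* (9.67) came next, and *Crh* was lowest at 3.17 CPM per kilobase. *Pmch* exceeded *Oxt* in 21 of the 23 mice, and *Oxt* exceeded *Avp* in 23. *Avp* and *Hcrt* could not be ordered, with *Avp* higher in 13 mice. From *Hcrt* down to *Crh*, each gene exceeded the next within every one of the 23 mice, although the ranges over mice overlapped for every neighbouring pair except *Nucb2* and *Crh*. The raw counts behind these levels ran from 47 to 158 for *Crh* and from 2385 to 15797 for *Pmch*, so that counting error weighed most on *Crh*.

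*Oxt* was lower on average in ExpOF than in Control mice on both days, without passing the threshold after adjustment. On d14 the 5 control mice had 88.1, 93.7, 115, 211 and 229 CPM. The 6 ExpOF mice ranged from 74.7 to 131 CPM with a median of 82.5. The groups overlapped, 4 of 6 ExpOF mice lay below every control mouse, and the gap came mainly from 2 control mice above 200 CPM, both killed in July. The fitted log2 difference was -0.70 ± 0.29 (SE), or 0.617 times the control level, with an adjusted p of 0.151 in edgeR's quasi-likelihood test over all genes, and the two-sided exact permutation test of log2 CPM gave p = 0.0779. On d14+3, control mice had a lowest, median and highest value of 65.2, 85.2 and 182 CPM and ExpOF mice of 47.7, 56.0 and 108 CPM. Here 5 of 6 ExpOF mice lay below every control mouse and replicate 5 was at 108 CPM. The log2 fold change was -0.73 ± 0.28 (SE, edgeR adjusted p = 0.585, exact permutation p = 0.0368). The exact permutation p-values of the 10 genes, from 20 tests over the 2 days, are given unadjusted throughout. Within cohorts the fitted *Oxt* difference was -0.85 in July and -0.19 in September on d14, and -1.07 and -0.42 on d14+3.

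*Avp* had the lowest fold changes of the 10 genes. On d14 the control mice had 68.8, 70.6, 95.5, 168 and 199 CPM, and the ExpOF mice had 49.1, 62.0 and 95.6 CPM as lowest, median and highest. As with *Oxt*, 4 of 6 ExpOF mice lay below every control mouse and the 2 highest controls were July mice. The log2 fold change was -0.83 ± 0.30 (SE), 0.562 times the control level (edgeR adjusted p = 0.139, exact permutation p = 0.0541). On d14+3 the control mice had 58.7, 68.2 and 167 CPM as lowest, median and highest and the ExpOF mice 33.8, 38.6 and 64.9 CPM. Again 5 of 6 ExpOF mice lay below every control mouse and replicate 5 was the exception. The log2 fold change of -0.99 ± 0.29 (SE) corresponded to 0.504 times the control level, with an interval of 0.330 to 0.770 (95% confidence, edgeR adjusted p = 0.413), and the exact permutation p was 0.00649. In July mice the *Avp* difference was -0.96 on d14 and -1.38 on d14+3, against -0.31 and -0.58 in September mice (the difference between cohorts was not tested). Within a cohort no exact permutation test could go below 0.1.

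*Crh* was measured at low counts and moved in opposite directions on the 2 days. On d14 the control mice had 3.18, 3.50, 3.52, 4.46 and 4.54 CPM and the ExpOF mice 3.19, 4.90 and 5.97 CPM as lowest, median and highest, with 4 of 6 ExpOF mice above every control. On d14+3 the control mice had 3.23, 4.36 and 5.54 CPM and the ExpOF mice 2.01, 3.58 and 4.94 CPM, and the groups overlapped widely. The log2 fold changes were 0.26 ± 0.19 on d14 and -0.28 ± 0.18 on d14+3 (SE, edgeR adjusted p = 0.380 and 0.768). The difference between the days, -0.54 ± 0.27, had an edgeR unadjusted p of 0.0541 and an adjusted p of 0.903.

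**Figure D1:**
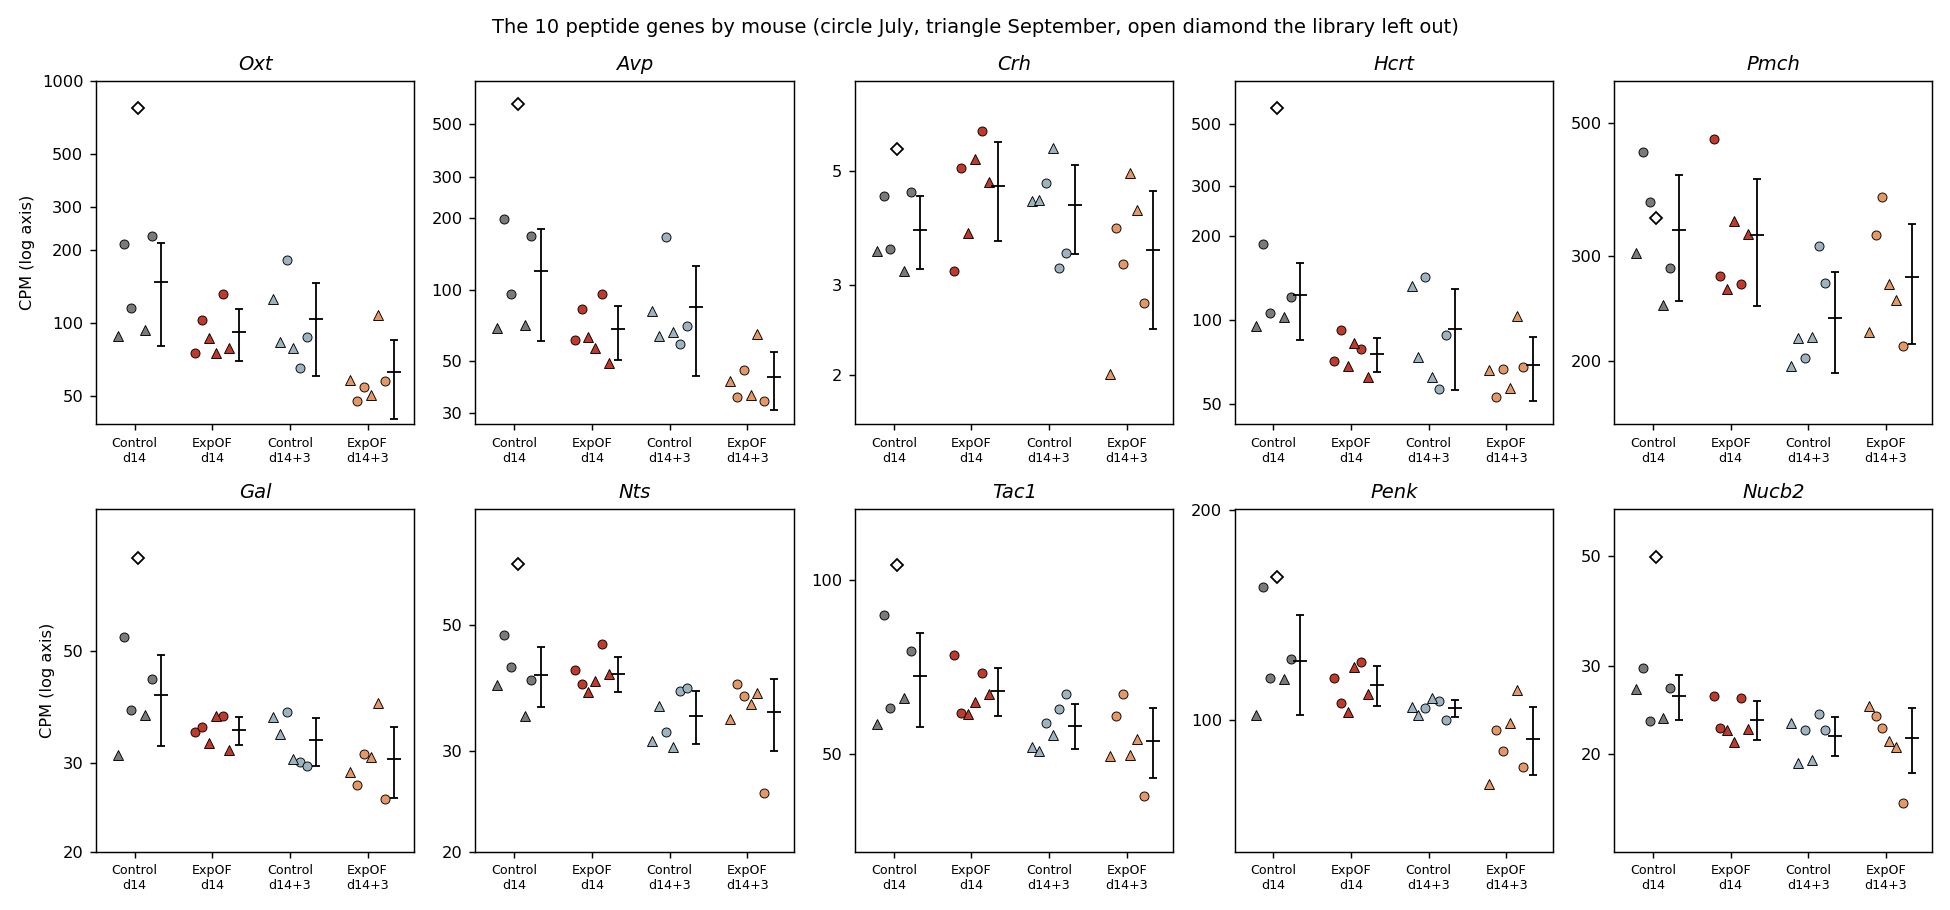
CPM of each gene (log axis) in every mouse of the 4 groups, circles for July and triangles for September mice, the open diamond for the left-out Control d14 mouse, and a bar for the mean ± SD of the mice used. Hcrt is the only gene in which every ExpOF mouse lies below every control mouse on d14, and the left-out mouse lies far above the other mice for Oxt (771 CPM), Avp (609 CPM) and Hcrt (571 CPM).

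Among the lateral hypothalamic genes, *Hcrt* was lower in ExpOF mice on d14 in every pairing of mice, and *Pmch* was not. The 5 control mice had 94.7, 102, 106, 121 and 187 CPM of *Hcrt*, and the ExpOF mice ranged from 62.4 to 91.6 CPM with a median of 74.9. The groups did not overlap, as was so for 0.958% of the 18992 genes with every ExpOF mouse lower and 2.5% in either direction, and the exact permutation p of 0.002165 is the smallest that 6 against 5 mice allow. The log2 fold change of *Hcrt* was -0.69 ± 0.22 (SE), 0.619 times the control level with a 95% interval of 0.449 to 0.855, and it did not pass after adjustment (edgeR adjusted p = 0.135). On d14+3 control mice had 56.6, 80.7 and 142 CPM as lowest, median and highest and ExpOF mice 52.9, 66.3 and 103 CPM. Most of these values overlapped, and the log2 fold change was -0.43 ± 0.22 (SE, edgeR adjusted p = 0.716). July mice gave *Hcrt* differences of -0.78 on d14 and -0.62 on d14+3, and September mice -0.48 and -0.26.

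*Pmch*, in the neighbouring neurons, had a log2 fold change of -0.02 ± 0.17 on d14, where the 95% interval of the ratio ran from 0.769 to 1.26. The control mice had 248, 286, 304, 370 and 447 CPM and the ExpOF mice 264, 302 and 471 CPM as lowest, median and highest. On d14+3 the values were 196, 219 and 311 CPM in control and 212, 261 and 376 CPM in ExpOF mice, with a log2 fold change of 0.23 ± 0.16 (SE, edgeR adjusted p = 0.775). The groups overlapped on both days. The difference between *Hcrt* and *Pmch* in their response was not tested.

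The 5 peptides of many neuron types had fold changes nearer to no change than *Oxt*, *Avp* and *Hcrt* on both days. *Gal* had 31.1, 37.4, 38.1, 43.9 and 53.3 CPM in the d14 controls and 31.8 to 37.2 CPM in the ExpOF mice, which all lay within the control range. Its log2 fold change was -0.23 ± 0.11 (SE, edgeR unadjusted p = 0.0494, adjusted p = 0.186) on d14 and -0.13 ± 0.11 on d14+3. *Penk* gave -0.12 ± 0.08 on d14 and -0.15 ± 0.08 on d14+3. On d14+3 its control mice spanned 100.0 to 108 CPM, the smallest spread relative to the mean of any gene and group here (coefficient of variation 2.79%), and 5 of 6 ExpOF mice (81.1 to 110 CPM) lay below them and 1 above (exact permutation p = 0.0476, edgeR adjusted p = 0.735). *Nucb2* gave -0.16 ± 0.10 on d14, where 4 of 6 ExpOF mice lay below every control mouse (exact permutation p = 0.0996). On d14+3 it gave -0.01 ± 0.09.

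For *Tac1* and *Nts* the intervals around no difference were narrow on both days. *Tac1* had log2 fold changes of -0.09 ± 0.10 on d14 and -0.08 ± 0.10 on d14+3, with 95% intervals of the ratio of 0.811 to 1.09 and 0.817 to 1.09. *Nts* had 0.01 ± 0.10 and 0.03 ± 0.09, with intervals of 0.877 to 1.15 and 0.893 to 1.16. Ratios within these intervals were compatible with the values of the 23 mice, and no detection limit was computed. The adjusted edgeR p-values of *Penk*, *Nucb2*, *Tac1* and *Nts* were at least 0.267 on both days.

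Counted together, 8 of the 10 genes had a negative log2 fold change on each day, and 0 passed an adjusted p of 0.05 on either. Of all tested genes with a known GC content, 53.5% were negative on d14 and 47.9% on d14+3. In July mice alone 9 of the 10 were negative on each day, and in September mice 5 on d14 and 7 on d14+3. On d14, 4 genes (*Oxt*, *Avp*, *Hcrt* and *Gal*) had an unadjusted edgeR p under 0.05, all lower in ExpOF mice, where 13.6% of all genes were lower at that level and 13.1% higher. On d14+3, 2 genes did (*Oxt* and *Avp*), both lower, where 4.2% of all genes were lower and 2.91% higher. At the adjusted threshold 1 of 18992 genes passed on d14 (0.00527%) and 0 on d14+3 (0%, with 1350 genes under an unadjusted 0.05, or 7.11%, and 42 called by DESeq2). On d14+3 RIN was lower in Control mice. With RIN as a covariate, 26 genes passed there, none of them among the 10, and the edgeR values were -0.92 for *Oxt* (adjusted p = 0.160), -1.18 for *Avp* (0.0866) and -0.57 for *Hcrt* (0.277). The median log2 fold change of the 10 genes was -0.14 on both days, beside -0.02 on d14 and 0.01 on d14+3 over the genes tested with a known GC content. The test of the difference between the days called 0 of 18992 genes in edgeR and in DESeq2, with 840 (4.42%) under an unadjusted 0.05 in edgeR, 1.64% negative and 2.78% positive, and none of the 10 among them. The days share no mice. Control d14 replicate 1 decided the d14 calls: without it 4220 genes passed, among them *Avp* (-0.97, adjusted p = 0.0350), *Hcrt* (-0.76, adjusted p = 0.0336) and *Gal* (-0.31, adjusted p = 0.0437) in edgeR. That mouse had a RIN of 8.6 and the lowest *Oxt*, *Avp*, *Hcrt* and *Gal* of the 5 controls. Without Control d14 replicate 5, which had a RIN of 8, 1 gene passed. With RIN as a covariate 1 gene passed on d14, and what part RNA integrity had in the d14 calls was not tested. With the left-out mouse included, the d14 values were -1.44 for *Oxt*, -1.55 for *Avp* and -1.36 for *Hcrt*. With the profile that set that mouse apart as a covariate, chosen after seeing the data and computed without the 10 genes, they were -0.03, -0.19 and -0.21.

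**Figure D2:**
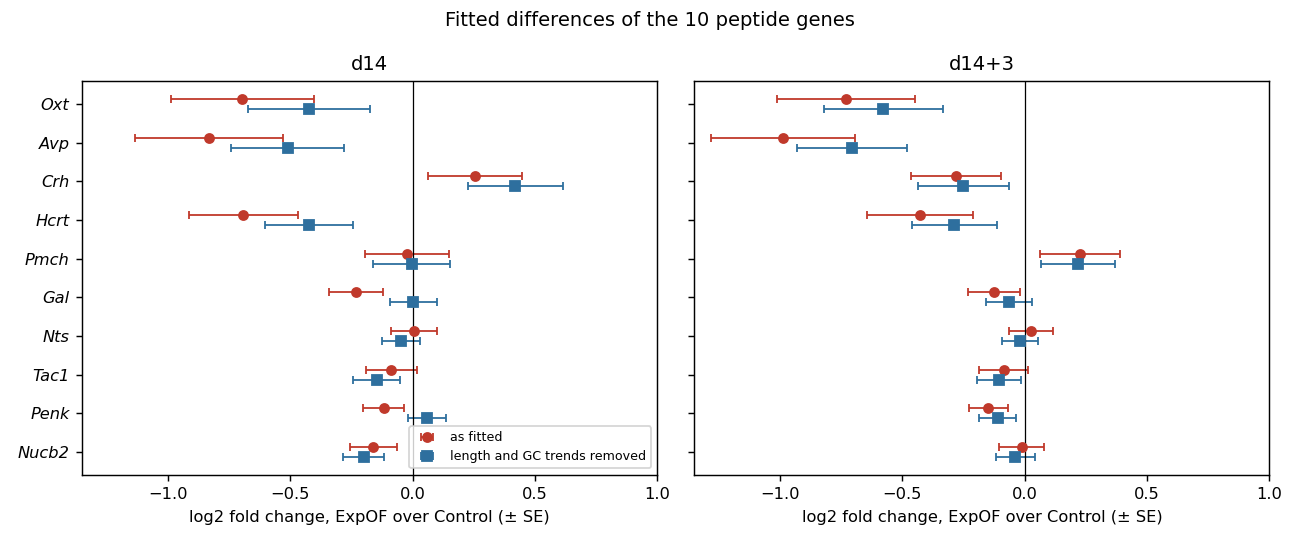
Log2 fold change of each gene (ExpOF over Control, ± SE from edgeR) on d14 and d14+3, as fitted (circles) and after removing each library's trends with gene length and GC content (squares). Oxt, Avp and Hcrt lie left of 0 on both days in both fits, and the d14 value of Gal moves from -0.23 to 0.00.

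Transcript composition differed among the 10 genes. The *Oxt*, *Avp* and *Hcrt* transcripts are short (537, 577 and 749 bases) and rich in G and C (60.5%, 65.7% and 60.2%), whereas *Pmch*, also 749 bases, has 41.7% GC and *Nts* 39.4%. *Oxt*, *Avp* and *Hcrt* thus belong to the tested genes with over 60% GC and under 1000 bases. With the 10 peptide genes taken out, the 64 that remained had a median log2 fold change of -0.35 on d14 and -0.23 on d14+3. The 291 genes under 45% GC and of the same length had medians of 0.04 on both days. Over 60% GC at any length, 791 genes had medians of -0.18 on d14 and -0.11 on d14+3. Under 1000 bases at any GC, 1492 genes had medians of -0.19 and -0.03. With each library's trends with length and GC content removed (an alternative chosen after seeing the data), the d14 log2 fold changes were -0.42 for *Oxt*, -0.51 for *Avp*, -0.42 for *Hcrt* and 0.00 for *Gal*, and those on d14+3 were -0.58, -0.71, -0.29 and -0.06. Among the other genes on d14, *Crh* went from 0.26 to 0.42, *Tac1* from -0.09 to -0.15 and *Nucb2* from -0.16 to -0.20. *Nts* went from 0.01 to -0.05, *Penk* from -0.12 to 0.06 and *Pmch* from -0.02 to -0.004. After trend removal the exact permutation p was 0.002165 for *Avp* on d14+3, the smallest possible, and 0.0152 for *Hcrt* on d14. It was 0.0260 for *Nucb2* on d14, 0.0346 for *Oxt* on d14+3 and 0.0584 for *Crh* on d14.

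The mean log2 level of the 64 GC-rich short genes gives a score for each mouse, chosen after seeing the data. It ranged from 0.825 to 1.23 in Control d14 and from 0.757 to 0.948 in ExpOF d14, a difference of -0.19 (exact permutation p = 0.0368), and from 0.767 to 1.27 and 0.552 to 0.914 on d14+3, a difference of -0.24 (exact permutation p = 0.0368). Across the 23 mice, with group means removed, the score correlated with *Oxt* at r = 0.79 and rho = 0.78 (permutation p = 2e-05 and 0.00016, adjusted over the 10 genes 0.0002 and 0.0016), and at r = 0.75 without the 2 mice farthest from the median score. For *Avp* r was 0.69 and rho 0.69, for *Hcrt* 0.70 and 0.68, and for *Gal* 0.69 and 0.76 (permutation p adjusted between 0.0022 and 0.011 for each). *Pmch* had r = -0.46 and rho = -0.52 (permutation p adjusted 0.061 and 0.0308). In July and September alone, r with the score was 0.83 and 0.65 for *Oxt*, 0.76 and 0.54 for *Avp*, 0.59 and 0.79 for *Hcrt* and 0.50 and 0.63 for *Gal*. What part composition had in the diet differences was not tested.

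**Figure D3:**
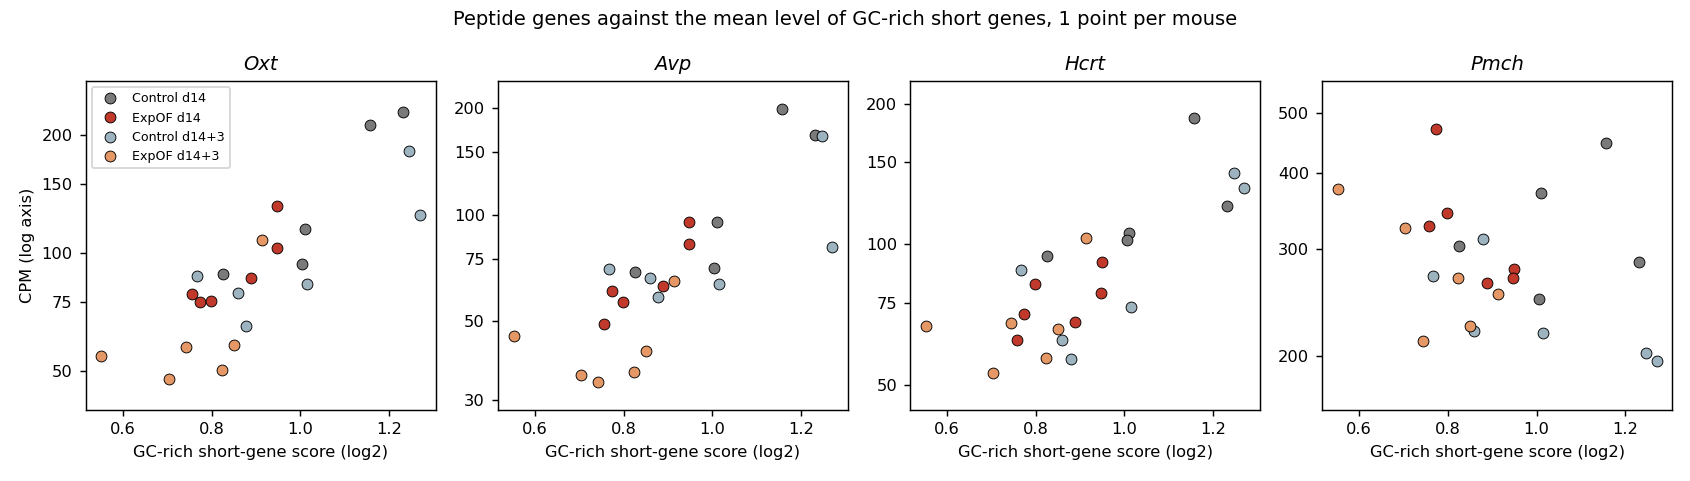
CPM of Oxt, Avp, Hcrt and Pmch (log axis) against the mean log2 level of GC-rich short genes, 1 point per mouse of the 4 groups. Oxt, Avp and Hcrt are higher in mice of higher score (r = 0.79, 0.69 and 0.70 with group means removed), and Pmch is not (r = -0.46).

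Across mice, with the group means removed, 14 of the 45 gene pairs correlated at an adjusted permutation p under 0.05 and all 14 were positive. The share of all gene pairs that would pass was not computed. *Oxt* and *Avp* were closest, at r = 0.94 and rho = 0.87 (permutation p = 2e-05 and 1e-05, adjusted 0.0003 and 0.000225, n = 23), and 0 of 14172 other genes correlated with either of them more closely. The r was 0.92 without the 2 mice farthest from the median of *Oxt*, 0.95 in July and 0.94 in September, and 0.87 with length and GC trends removed, where *Ly6h* and *Mrps34* (r = 0.89 and 0.88) were closer to *Oxt*. The identical exon 2 run is present in both transcripts, and its part in this value was not tested. *Hcrt* followed *Oxt* (r = 0.83, rho = 0.84) and *Avp* (r = 0.79, rho = 0.82), with 46 and 25 of 14172 genes closer to *Oxt* and to *Avp*, although orexin is made in other neurons. *Gal* joined them, at r = 0.80 with *Oxt*, 0.81 with *Avp* and 0.77 with *Hcrt* (rho 0.71, 0.77 and 0.73). For these 5 pairs the adjusted permutation p lay between 0.000225 and 0.00105 for r and between 0.000225 and 0.00923 for rho. Without the farthest 2 mice, r lay between 0.67 and 0.77. July r lay between 0.72 and 0.89 and September r between 0.73 and 0.87. With length and GC trends removed, r lay between 0.64 and 0.76.

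Other links joined *Tac1*, *Nts*, *Nucb2* and *Pmch*, although *Pmch* and *Nucb2* themselves did not pass. *Nts* and *Tac1* had r = 0.70 and rho = 0.64 (permutation p adjusted 0.0041 and 0.0114), *Pmch* and *Tac1* 0.69 and 0.60 (0.0041 and 0.0256), *Nts* and *Nucb2* 0.67 and 0.50 (0.0256 and 0.0746). *Tac1* and *Nucb2* had 0.66 and 0.63 (permutation p adjusted 0.0106 and 0.0155), and *Pmch* and *Nts* 0.65 and 0.65 (0.00684 and 0.00923). Without the farthest 2 mice r stayed between 0.41 and 0.71. Apart from *Pmch* and *Nts* (July 0.66, September 0.62), these pairs rested on the July mice. September r was -0.22 for *Nts* and *Tac1*, 0.06 for *Pmch* and *Tac1*, -0.23 for *Nts* and *Nucb2* and -0.52 for *Tac1* and *Nucb2*. With length and GC trends removed, *Pmch* and *Nts* were at r = 0.35 (adjusted permutation p = 0.206) and the other pairs between 0.55 and 0.61. Pairs across the 2 sets then passed too, such as *Avp* and *Tac1* (0.68, adjusted permutation p = 0.0152) and *Gal* and *Nts* (0.65, 0.0180). *Penk* was linked to *Gal* (r = 0.78, rho = 0.55), *Crh* (0.59 and 0.69) and *Avp* (0.54 and 0.33), with adjusted permutation p of 0.0041, 0.0108 and 0.0432 for r and 0.0308, 0.00788 and 0.324 for rho. For *Gal* and *Penk*, r was 0.57 without the farthest 2 mice and 0.66 and 0.75 in July and September. The corresponding values were 0.60, 0.33 and 0.79 for *Crh* and *Penk*, and 0.47, 0.39 and 0.42 for *Avp* and *Penk*. Of 14172 genes, 13.5% were closer to *Avp* than *Penk* was, and 15.2% were closer to *Penk* than *Avp* was. For *Crh* and *Penk* these shares were 0.402% and 11%, and for *Gal* and *Penk* 3.66% and 0.84%. For the linked pairs among *Tac1*, *Nts*, *Nucb2* and *Pmch* they ran from 0.169% to 2.58%.

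Pairs that share a region were not all linked. *Hcrt* and *Pmch*, both lateral hypothalamic, had r = -0.14 and rho = -0.23 (permutation p adjusted 0.640 and 0.488), and r = -0.30 without the farthest 2 mice. The 3 paraventricular genes divided, with *Crh* at r = 0.41 to *Oxt* and 0.39 to *Avp* (rho 0.28 and 0.33, permutation p adjusted 0.109 for each r and 0.381 and 0.282 for rho). Without the farthest 2 mice these were 0.35 and 0.36, and they differed by cohort, at 0.74 and 0.75 in July and -0.01 for both in September. *Penk* and *Tac1* missed the threshold at r = 0.60 and rho = 0.61 (permutation p adjusted 0.0572 and 0.0256), with r = 0.54 without the farthest 2 mice and 0.69 and 0.67 by cohort.

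**Figure D4:**
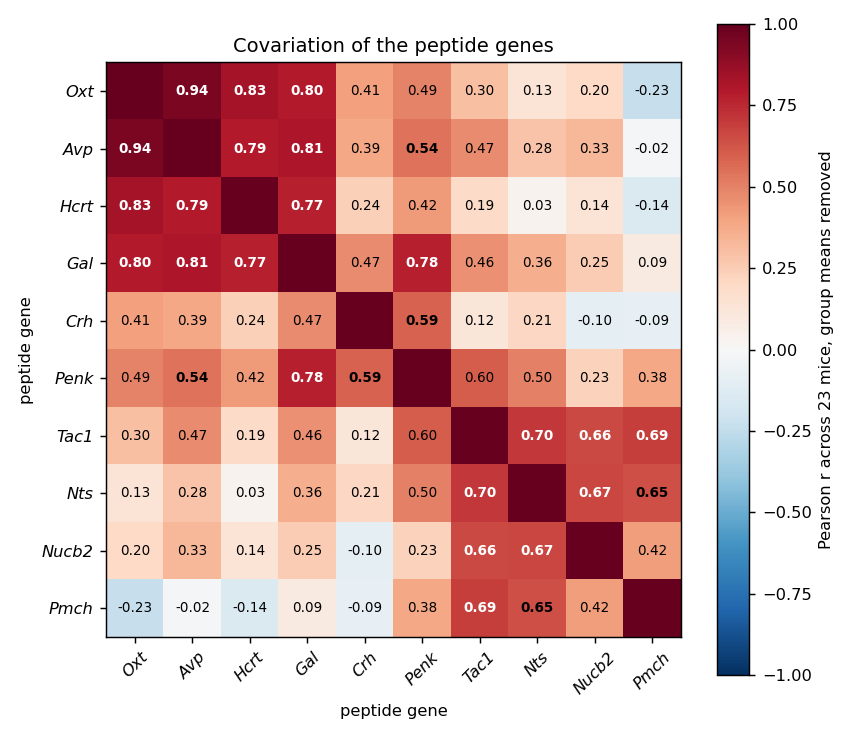
Pearson r between the 10 peptide genes across 23 mice, with the group means of log2 CPM removed, in bold where the permutation p adjusted over 45 pairs is under 0.05. Among Oxt, Avp, Hcrt and Gal r runs from 0.77 to 0.94, and among Tac1, Nts, Nucb2 and Pmch from 0.42 to 0.70. Penk and Gal are at 0.78. With length and GC trends removed these sets are less distinct, with Pmch and Nts at 0.35 and Avp and Tac1 at 0.68.

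The 3 genes most like each peptide gene across the 23 mice, among 14172 with a mean of at least 50 counts, were mostly not peptide genes. For *Oxt* they were *Avp*, *Gm42517* (r = 0.93) and *Ly6h* (0.92), and for *Avp* they were *Oxt*, *Gm42517* (0.90) and *Tmem158* (0.86). *Hcrt* was closest to *Lmna* (0.90), the somatostatin gene *Sst* (0.90) and *Bola1* (0.89). *Gal* was closest to *Rfxap*, *Jtb* and *Pfdn1* (each 0.90), *Penk* to *Psmd14*, *Cct2* and *Cluap1* (each 0.89), and *Tac1* to *Tceal9*, *Tmem251* (each 0.90) and *Pgrmc1* (0.89). For *Pmch* the first was an unnamed gene (0.85), followed by *Ptp4a2* (0.82) and *Minar2* (0.81), and for *Nts* they were *Upf3b* (0.86), *Chchd7* (0.83) and *Sgcb* (0.82). *Nucb2* was closest to *Ccdc40* (0.81), *Rps15a* (0.76) and *Fezf2* (0.75), and *Crh* to *Hfe2* (0.73), *Pgpep1l* and *Siah2* (each 0.71). These values describe the 23 libraries, which share depth and composition differences, and carry no test.

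Receptors of these peptides had more positive than negative values on d14. Of 21 receptor genes, 18 were tested, 12 had a positive and 6 a negative log2 fold change, and the median was 0.19. An unadjusted edgeR p under 0.05 was reached by 5 that were higher and 2 that were lower, or 7 of 18, beside 26.7% of all genes. With length and GC trends removed, 6 higher and 0 lower were under 0.05, and in September mice alone 1 was, a higher one. *Hcrtr2*, *Oprk1* and *Mchr1*, named next, were at 0.28, 0.16 and -0.08 with the trends removed. *Hcrtr2*, the orexin receptor of arousal neurons, had 0.47 ± 0.15 (edgeR adjusted p = 0.135), *Oprk1*, the kappa opioid receptor, 0.39 ± 0.15 (0.141), and *Mchr1*, the receptor of melanin-concentrating hormone, -0.25 ± 0.09 (0.138). The oxytocin receptor *Oxtr* was at 0.06 ± 0.08 and the vasopressin receptor *Avpr1a* at 0.27 ± 0.15. On d14+3 the median was 0.10, with 0 receptors under an unadjusted 0.05, and *Hcrtr2* (0.22 ± 0.14), *Oprk1* (0.21 ± 0.14) and *Avpr1a* (0.21 ± 0.15) had the smallest p-values (edgeR adjusted p at least 0.768).

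Genes that process prohormones or build secretory granules had a median log2 fold change of -0.14 on d14, with 11 of 14 lower and 6 of them under an unadjusted edgeR p of 0.05, beside 13.6% of all genes. This was 3 with length and GC trends removed and 0 in September mice alone. The granins *Scg2* (-0.15 ± 0.05), *Scg5* (-0.24 ± 0.09) and *Chgb* (-0.18 ± 0.07) had the smallest p-values (edgeR adjusted p from 0.135 to 0.142). On d14+3 the median was -0.04 and 0 were under 0.05. The smallest p-values there were for *Pcsk1n*, an inhibitor of prohormone convertase (-0.63 ± 0.35), *Ctsl* (-0.11 ± 0.06) and *Vgf* (-0.24 ± 0.15), with edgeR adjusted p of at least 0.748.

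Of 22 other hypothalamic neuropeptide genes, 21 were tested and 19 were lower on d14, with a median of -0.25 and 11 under an unadjusted edgeR p of 0.05, all lower, beside 13.6% of all genes. With length and GC trends removed, 16 were lower, the median was -0.14, and 4 lower and 1 higher were under 0.05. In September mice alone 3 were, all lower. *Npy*, the feeding peptide of arcuate neurons, was the 1 gene that fell past the adjusted threshold (-1.10 ± 0.12, edgeR adjusted p = 4.69e-05), followed by its partner *Agrp* (-0.90 ± 0.18, 0.117) and neuromedin B, *Nmb* (-0.54 ± 0.16, 0.135). On d14+3 the median was -0.13 (0.05 in September mice alone), with 2 lower and 1 higher under 0.05: *Npy* (-0.56 ± 0.12, edgeR adjusted p = 0.206), *Tac2* (-0.28 ± 0.12, 0.613) and *Nmu* (0.79 ± 0.33, 0.616). DESeq2 called 2 genes of this list on d14 and 1 on d14+3 at its adjusted threshold of 0.05.

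Among 5 transcription factor genes listed as identity genes of paraventricular and orexin neurons, 4 had a positive log2 fold change on d14 and 3 on d14+3. On d14, *Sim1* (0.55 ± 0.25, edgeR adjusted p = 0.166) and *Pou3f2* (0.37 ± 0.14, 0.140), which specify paraventricular neurons, had positive values under an unadjusted edgeR p of 0.05, while *Otp* was at -0.17 ± 0.11. These 2 of 5 stood beside 13.1% of all genes higher at that level. The count was 1 with length and GC trends removed and 0 in September mice alone. *Lhx9* (0.12 ± 0.28) and *Arnt2* (0.06 ± 0.07) lay within their SE of 0. The list median was 0.12 on d14 and 0.04 on d14+3, where *Pou3f2* (0.13 ± 0.13), *Sim1* (0.23 ± 0.24) and *Otp* (-0.10 ± 0.11) had the smallest p-values and 0 were under 0.05.

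**Figure D5:**
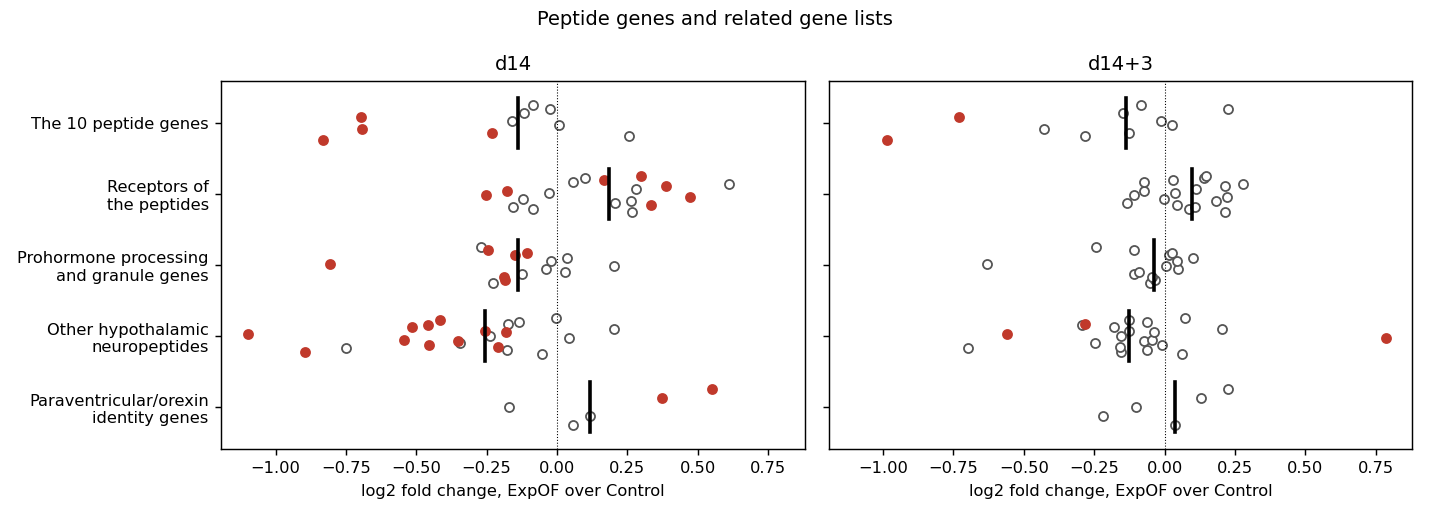
Log2 fold change (ExpOF over Control) of each tested gene in the 10 peptide genes and 4 related lists on d14 and d14+3, filled where the unadjusted edgeR p is under 0.05, with a bar at the list median. On d14 the medians are -0.14 for the peptide genes, 0.19 for receptors, -0.14 for processing genes, -0.25 for other neuropeptides and 0.12 for identity genes.

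The dissected tissue was checked through marker lists. All 8 hypothalamic markers were detected in every library, with a summed level between 56.2 and 106 CPM. The 6 markers of thalamus and habenula summed to 95.8 to 354 CPM in Control d14 and 111 to 239 CPM in ExpOF d14, but to 261 to 594 and 242 to 539 CPM on d14+3, and the hypothalamic markers had medians of 99.8 and 95.4 CPM on d14 and of 74.7 and 72.4 CPM on d14+3. With these, the median of 9 of the 10 peptide genes was lower in Control d14+3 than in Control d14 and that of 10 of 10 in ExpOF, where 51.8% and 52.1% of all genes were lower. *Pmch* went from a median of 304 to 219 CPM in control mice and *Oxt* from 115 to 85.2 CPM, while *Crh* went from 3.52 to 4.36 CPM. Between diets on the same day the marker sums of thalamus overlapped. Of the 8 hypothalamic markers, 7 had a negative log2 fold change between diets on d14 (median -0.11) and 4 on d14+3 (median -0.04). Over all tested genes with a known GC content, 53.5% and 47.9% were negative. Striatal markers summed to 95.7 to 149 CPM and cortical ones to 58.3 to 89.0 CPM. Pituitary markers reached 105 CPM in 1 Control d14 mouse and were at 20.3 CPM or less in every ExpOF mouse, with *Lhb* at 0 counts in all 23 libraries. Choroid plexus markers reached 3056 CPM in Control d14 and 1290 CPM in ExpOF d14+3 against medians of 39.9 to 49.8 CPM. What part the dissection had in the peptide values was not tested.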

How the data were processed

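Poly-A selected RNA of whole mouse hypothalamus was sequenced from stranded libraries as 51-base paired reads. The authors aligned the reads with STAR to mm10 and deposited raw counts per gene made with featureCounts (version 1.6.4) on GENCODE vM22. From these counts, CPM values, folds and tests were computed here. Symbols were matched through GENCODE vM21 (55144 of 55471 genes). The test was edgeR's quasi-likelihood test (edgeR 4.0.16, R 4.3.3) with TMM scaling, 1 mean per group and genes kept by a minimum count of 10 in a group's worth of libraries and a minimum total of 15, adjusted by Benjamini-Hochberg over 18992 genes at 0.05. Log2 CPM used a prior count of 2. Exact permutation tests were two-sided and not adjusted over genes or days, and correlations used 100000 permutations within groups. DESeq2 1.42.0 served as an alternative. The programs were tested on simulated data.

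The mouse the study left out was identified as Control d14 replicate 4, because the mean of the other 5 libraries matched the deposited group mean within 0.000146%, against 7.01% or more for any other choice. No 2 of 55 library pairs within groups agreed within sampling noise (lowest chi-square per degree of freedom 2.83). Depth per library, 8928182 to 34848437 counts, sets the precision of the lowest gene, *Crh*. Samples were grouped by the labels. The members and lists were chosen with earlier results of these data known. Named were all 10 peptide genes, the up to 3 genes of smallest p in each list, and the 3 genes most like each peptide gene. *Oxtr*, *Avpr1a*, *Lhx9* and *Arnt2* on d14 and *Mrps34* were named outside that rule, after their values were seen. Removing each library's length and GC trends used natural splines with 5 degrees of freedom each and was chosen after seeing the data. The score of GC-rich short genes and its tests were also chosen after seeing the data.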

Additional observations from a re-analysis of the deposited data

Results flagged for a closer look

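In groups of 5 or 6 mice, 1 mouse stood apart from the rest in 4 of 40 gene and group combinations, where chance gives about 1 in 20. *Oxt* was at 108 CPM in ExpOF d14+3 replicate 5, with the nearest mouse at 58.3 and the farthest at 47.7 CPM. *Hcrt* in the same mouse was at 103 CPM, with the others between 52.9 and 67.8 CPM. *Avp* was at 167 CPM in Control d14+3 replicate 3, with the others between 58.7 and 81.0 CPM. *Nts* was at 25.4 CPM in ExpOF d14+3 replicate 6, with the others between 34.2 and 39.4 CPM.

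The left-out mouse, Control d14 replicate 4, lay above every other Control d14 mouse for 9 of the 10 genes when scaled with all 24 libraries. It had 771 CPM of *Oxt* where the highest of the other 5 had 225, 609 CPM of *Avp* against 196 and 571 CPM of *Hcrt* against 185. It had 76.4 CPM of *Gal* against 52.6, 63.9 CPM of *Nts* against 47.3, 106 CPM of *Tac1* against 85.8 and 49.7 CPM of *Nucb2* against 29.3. *Crh* was at 5.51 CPM against 4.47 and *Penk* at 161 CPM against 153. Choroid plexus markers summed to 4555 CPM in this library. Their part in its peptide values was not tested.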

How the results depend on the processing

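Of the fitted fold changes of the 10 genes under other settings than leaving out a library, 396 kept their direction and their side of the threshold and 44 changed sign. With 1 library left out, 637 did so, 50 changed sign and 3 passed the threshold. The d14 directions of *Oxt*, *Avp* and *Hcrt* held in each. Where values changed, the cause was not tested.

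Against 1 gene called on d14, DESeq2 called 167, the fit of only the 2 groups compared 2, July mice alone 0 and September mice alone 0. With length and GC trends removed it was 6, 2 with all 24 libraries and 2 with the replicate block. Leaving out 1 library gave 1 to 4220, the highest without Control d14 replicate 1. Against 0 on d14+3, DESeq2 called 42 and the fit with RIN as a covariate 26. Against 14 linked pairs, all 24 libraries gave 28, July mice 0, September mice 0 and the removal of length and GC trends 18.

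The other values of reversed sign follow, as log2 fold changes unless named, with between-day values being d14+3 minus d14. The between-day *Tac1* value was -0.007422 with DESeq2, -0.005218 with its size factors, -0.003177 with genes of at least 1 count, -0.01775 with cohort and extraction round and -0.02786 with the left-out library's profile as a covariate. In July mice *Nts* was at -0.03491 on d14, -0.09354 on d14+3 and -0.05863 between days, with exact-test differences of -0.0309 and -0.1213, and between-day *Penk* was at 0.0124 and *Nucb2* at -0.03384. In September mice d14 *Pmch* was at 0.1697, *Tac1* at 0.03622 and *Penk* at 0.02485 (exact-test differences 0.1719, 0.04081 and 0.02795), d14+3 *Nucb2* at 0.1085 (0.1132), and between-day *Gal* at -0.03277 and *Tac1* at -0.07535. September correlations were -0.01259 for *Oxt* and *Crh*, -0.01122 for *Avp* and *Crh*, -0.223 for *Nts* and *Tac1*, -0.2256 for *Nts* and *Nucb2* and -0.525 for *Tac1* and *Nucb2*. With all 24 libraries d14 *Nts* was at -0.1046 (exact-test difference -0.0878) and between-day *Oxt* at 0.7049, *Avp* at 0.5572 and *Penk* at 0.02358. *Pmch* on d14 was at 0.02285 with RIN and 0.02716 with cohort and round as covariates.

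With trends removed, d14 *Gal* was at 0.002451, *Nts* at -0.04607 and *Penk* at 0.05996 (exact-test differences 0.02442, -0.03698 and 0.06838), d14+3 *Nts* at -0.02006 (-0.02653), between-day *Gal* at -0.06613 and the *Hcrt* and *Pmch* correlation at 0.07713. With all 24 libraries as well, *Nts* was at -0.207 and -0.01891 on the 2 days, d14 *Penk* at 0.05672, and between-day *Oxt* at 0.2752, *Avp* at 0.1507 and *Gal* at -0.01337. With the left-out library's profile as a covariate, d14 *Gal* was at 0.04589, *Nts* at -0.02582 and *Penk* at 0.02631, and between-day *Gal* at -0.04707.

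With the replicate block, 1 gene was called on d14 and 0 on d14+3, and between-day *Tac1* was at -0.02087. With trends removed and the replicate block, d14 *Pmch* was at 0.01594, *Gal* at 0.001125, *Nts* at -0.02739 and *Penk* at 0.04821, d14+3 *Nts* at -0.02226 and between-day *Gal* at -0.06384. Same-numbered mice share only a number: over 33 pairs their deviations correlated at a median r of -0.07 (-0.40 to 0.48), and 1 of 23 libraries correlated best with its own number.

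With 1 library left out, d14 values ran from -0.0486 to 0.06586 for *Nts*, -0.1641 to 0.1048 for *Pmch* and -0.1419 to 0.009695 for *Tac1*, and d14+3 values from -0.008923 to 0.1007 for *Nts* and -0.05861 to 0.05897 for *Nucb2*. Between-day values ran from -0.4093 to 0.1603 for *Avp*, -0.2589 to 0.2043 for *Oxt*, -0.005363 to 0.1724 for *Gal*, -0.0412 to 0.09435 for *Nts*, -0.128 to 0.01317 for *Penk* and -0.09509 to 0.0568 for *Tac1*. At 47 to 158 counts, *Crh* is the gene depth limits most.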
